A study of Mus musculus with 22 samples.

Results

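Genes of extracellular matrix proteolysis were followed in mouse kidneys exposed to cisplatin with or without KW6002 (istradefylline), an antagonist of an adenosine receptor. The genes were taken by symbol from a table of 32858 genes, all 10 were found, and all 10 passed the filter on low counts that 17131 genes passed. Mmp7 passed that filter only through the cisplatin libraries, where it was highest. They encode 3 matrix metalloproteinases (Mmp2, Mmp7, and Mmp14), 1 secreted protease of the ADAMTS family (Adamts1), 3 tissue inhibitors of metalloproteinases (Timp1, Timp2, and Timp3), the plasminogen activators Plau and Plat, and the receptor Plaur. Male C57Bl6/J mice of 8 to 10 weeks were divided into 4 groups, and 1 kidney library was made from each of 22 mice. The vehicle group (n = 5) had neither drug, and the KW6002 group (n = 6) had KW6002 at 3 mg/kg daily from day -5 to day 7. The cisplatin group (n = 5) had 6 daily injections of cisplatin at 3 mg/kg, and the cisplatin plus KW6002 group (n = 6) had both drugs. The last group is labelled Cisplatine + KW6002. KW6002 was dissolved in DMSO, cremophor, and saline, and cisplatin in saline. Both groups given cisplatin were killed 72 hours after the last injection. No strain, sex, or genotype other than these was used, and whole tissue was profiled at a single time.

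Matrix metalloproteinases are zinc enzymes that cut collagens, proteoglycans, and cell surface proteins, and most are made as inactive precursors. TIMP proteins block them by binding the active site. TIMP2 has a further role, since it links the membrane enzyme encoded by Mmp14 to the precursor of the gelatinase encoded by Mmp2, which is then cut and activated. The plasminogen activators urokinase (Plau) and tissue-type activator (Plat) convert plasminogen into plasmin, which degrades fibrin and matrix, and urokinase is held at the cell surface by its receptor (Plaur). In the kidney, urokinase is a product of tubule cells and is released into the urine.

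Cisplatin moved 9 of the 10 genes, where 34.6% of the 17131 genes tested rose and 35.9% fell. Expression of Mmp2, Mmp7, Mmp14, Adamts1, Timp1, Timp2, Plaur, and Plat rose, and that of Timp3 fell. When KW6002 was added to cisplatin, 9 of the 10 genes were lower than with cisplatin alone, and Timp3 was the exception. Of all genes tested, 27.2% were lower and 28.6% higher in that comparison. KW6002 without cisplatin moved none of the 10 and 0.0175% of all genes.

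Start-site windows were available for 7 of the 10 genes, from RefSeq on build GRCm38.p6, and each spans 250 bases before and 50 bases after a start. There was no window for Mmp2, Plau, and Plat. The windows shown are those of Timp1 and Timp3, inhibitor genes that moved in opposite directions after cisplatin, and of Mmp7 and Plaur, which rose and were the only members whose windows held an exact AP-1 motif (TGANTCA). AP-1 is a transcription factor of Fos and Jun proteins. The motif is in capitals for Mmp7 and Plaur, and the GC box (GGGCGG, or CCGCCC on the other strand) is in capitals for Timp1 and Timp3. All 4 windows are on the plus strand and are written 5′ to 3′.
Mmp7, chr9:7691840-7692139: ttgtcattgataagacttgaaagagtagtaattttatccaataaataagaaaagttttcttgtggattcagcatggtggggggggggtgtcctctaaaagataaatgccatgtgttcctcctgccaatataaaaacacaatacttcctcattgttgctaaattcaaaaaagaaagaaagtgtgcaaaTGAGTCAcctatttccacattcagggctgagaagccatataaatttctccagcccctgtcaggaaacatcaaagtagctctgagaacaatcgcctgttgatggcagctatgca
Plaur, chr7:24462233-24462532: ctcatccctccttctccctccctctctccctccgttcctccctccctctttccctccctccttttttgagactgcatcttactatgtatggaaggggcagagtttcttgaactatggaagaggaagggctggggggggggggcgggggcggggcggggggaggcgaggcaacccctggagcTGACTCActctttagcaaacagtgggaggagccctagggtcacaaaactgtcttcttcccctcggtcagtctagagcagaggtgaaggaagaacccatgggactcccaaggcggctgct
Timp1, chrX:20869916-20870215: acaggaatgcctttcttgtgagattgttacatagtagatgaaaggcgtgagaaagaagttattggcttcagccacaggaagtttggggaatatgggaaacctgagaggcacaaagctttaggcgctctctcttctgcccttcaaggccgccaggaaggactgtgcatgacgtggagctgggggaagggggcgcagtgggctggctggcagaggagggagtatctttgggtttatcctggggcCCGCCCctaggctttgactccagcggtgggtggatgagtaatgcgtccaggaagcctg
Timp3, chr10:86300162-86300461: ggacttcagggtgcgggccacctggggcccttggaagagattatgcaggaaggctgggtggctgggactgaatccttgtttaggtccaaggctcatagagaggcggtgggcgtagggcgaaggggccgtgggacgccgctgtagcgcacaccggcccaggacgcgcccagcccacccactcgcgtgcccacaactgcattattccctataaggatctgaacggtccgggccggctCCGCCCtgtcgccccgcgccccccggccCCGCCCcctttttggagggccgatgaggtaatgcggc
Counting the start as position 0, the AP-1 motif begins at -63 for Mmp7, where it reads TGAGTCA, and at -69 for Plaur, where it reads TGACTCA. On either strand, TGANTCA was found in 7.81% of all 32851 RefSeq windows of this length and GGGCGG in 35.7%. The GC box was in 6 of the 8 windows of the members (Mmp7 has 2 windows), namely those of Mmp14, Timp1, Timp2, Timp3, Plaur, and Adamts1. TATAAA, the core of the TATA box, was in 13.6% of all windows and in those of Mmp7 and Adamts1. These matches describe letters only.

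Libraries held between 26471762 and 40510754 counts (median 32721214.5). Levels are given as CPM, the counts of a gene scaled to a common library size by TMM factors. Group differences are log2 fold changes from edgeR's quasi-likelihood test with Benjamini-Hochberg adjustment over the 17131 genes, and a gene passed at an adjusted p below 0.05. The summed CPM of 6 proximal tubule markers was 14000 to 15100 in vehicle kidneys and 1430 to 2650 after cisplatin, with all 6 lower, and it was 5320 to 8210 with cisplatin plus KW6002. The summed CPM of 6 fibroblast markers was 190 to 332 with vehicle, 223 to 387 with KW6002, 696 to 892 with cisplatin, and 350 to 572 with cisplatin plus KW6002. Of these 6 fibroblast genes, 5 rose after cisplatin and 5 were lower with the addition of KW6002. In whole tissue, a change in the number of cells of a type and a change in RNA per cell cannot be told apart, and the part of any marker list in the results on the 10 genes was not tested. Neutrophil and T cell markers were near 0, with 3-gene sums of at most 9.94 and 1.76 CPM in any library. Fat markers (4 genes) summed to 29.1 to 363 CPM with vehicle, 6.22 to 128 with KW6002, 130 to 235 with cisplatin, and 3.14 to 84.2 with both drugs, and all 4 were lower in the combined group than with cisplatin. Macrophage markers (6 genes) summed to 152 to 287 CPM with vehicle, 196 to 269 with cisplatin, and 116 to 166 with both drugs. Of these 6, 1 was higher and 2 were lower with cisplatin than with vehicle. Podocyte markers (4 genes) summed to 467 to 572 CPM with vehicle, 464 to 507 with cisplatin, and 435 to 499 with both drugs. Of these 4, 3 were lower and 1 was higher with cisplatin than with vehicle. Endothelial markers (5 genes) summed to 374 to 395 CPM with vehicle, 307 to 383 with cisplatin, and 304 to 331 with both drugs, and 4 of the 5 were lower with both drugs than with vehicle. Thick ascending limb markers went from 4520 to 7550 CPM with vehicle to 1960 to 2270 with cisplatin and 2280 to 4120 with both drugs, and collecting duct markers from 266 to 487 CPM to 498 to 751 and 398 to 746. Of the 3 collecting duct genes, 1 rose and 1 fell with cisplatin. Muscle markers did not exceed 0.882 CPM in sum. The 3 adrenal markers summed to 49.8 CPM in cisplatin plus KW6002 replicate 6 and to at most 2.67 CPM in the other libraries. Labels number 3 vehicle and 3 KW6002 mice in the 300s and all other mice in the 500s.

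**Figure D1:**
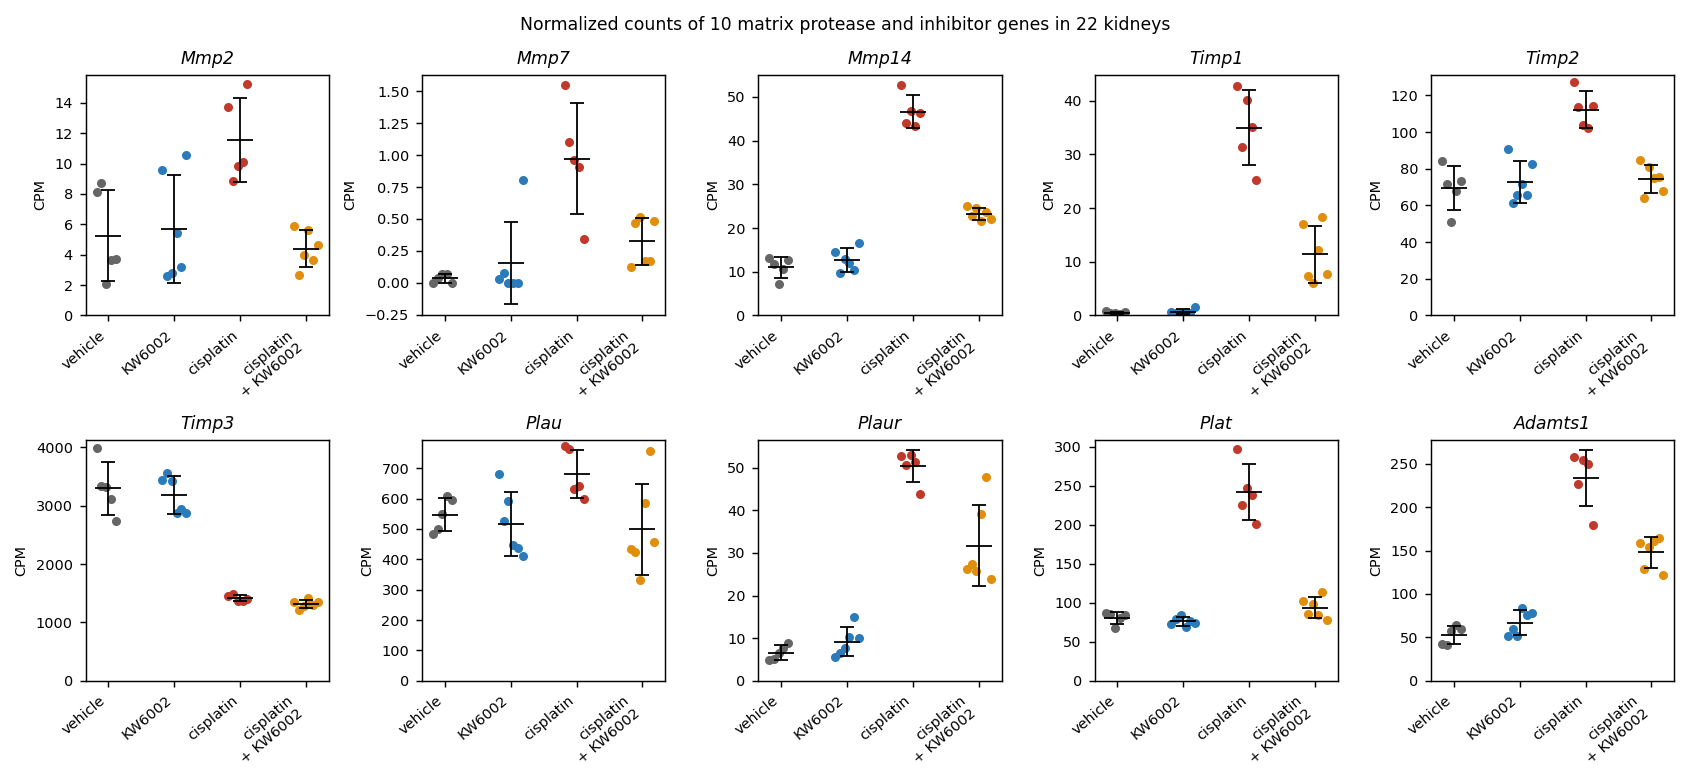
Each panel plots 1 gene, with TMM-scaled CPM on a linear axis for every library (points) of the 4 groups and the group mean ± SD (black bars). Cisplatin libraries lie above every vehicle library for 8 genes and below them for Timp3, while Plau libraries overlap.

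Mmp14 encodes the membrane-anchored enzyme MT1-MMP (ENSMUSG00000000957, mm10 chr14:54431612-54445364, plus strand). Its level in the vehicle libraries was 13.1, 11.8, 7.12, 10.6, and 12.8 CPM, and in the cisplatin libraries it was 52.8, 44.0, 46.7, 43.2, and 46.4 CPM. With cisplatin plus KW6002 it ran from 21.6 to 25.0 CPM, with a median of 23.3, and with KW6002 alone from 9.64 to 16.6 CPM, with a median of 12.4. The 3 levels (untreated or KW6002, combined treatment, and cisplatin) did not overlap in any library. Cisplatin raised Mmp14 4.21-fold (log2 fold change 2.07 ± 0.14 SE, adjusted p = 6.35e-12). The addition of KW6002 lowered it to 0.499 times the cisplatin level (log2 fold change -1.0 ± 0.12, adjusted p = 4.99e-07), which was still 2.10-fold the vehicle level (adjusted p = 3.82e-07).

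Mmp2 encodes a gelatinase (ENSMUSG00000031740, mm10 chr8:92827291-92853420, plus strand). It was measured at 8.16, 8.70, 2.08, 3.66, and 3.71 CPM in vehicle kidneys and at 13.8, 8.87, 9.83, 10.1, and 15.2 CPM after cisplatin. The lowest cisplatin library stood just above the highest vehicle library, and vehicle replicates 1 and 2 stood apart from the other vehicle libraries. Those replicates also had the highest fat and macrophage marker sums of the group, at 209 and 363 CPM for fat against 29.1 to 66.3 CPM in the other 3, and at 287 and 267 CPM for macrophages against 152 to 165 CPM. Whether this bears on Mmp2 was not tested. With KW6002 the range was 2.61 to 10.6 CPM (median 4.32), and with both drugs it was 2.67 to 5.88 CPM (median 4.30). Mmp2 rose 2.20-fold with cisplatin (log2 fold change 1.14 ± 0.38, adjusted p = 0.0109) and was lower when KW6002 was added (log2 fold change -1.39 ± 0.36, adjusted p = 0.00241). Against vehicle, the combined treatment gave a log2 fold change of -0.25 ± 0.37 (adjusted p = 0.583), so a difference was not detected at this spread.

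Mmp7 encodes matrilysin, a small metalloproteinase of epithelial cells (ENSMUSG00000018623, mm10 chr9:7692090-7699585, plus strand). It was the least abundant of the 10 genes, and single counts carried its values. The vehicle libraries held 0, 1, 2, 2, and 0 counts and the cisplatin libraries 58, 44, 36, 34, and 12 counts. With both drugs the libraries held 4 to 17 counts, above every vehicle library. In the KW6002 group 5 libraries held 0 to 3 counts and replicate 6 held 21. The filter asks for 10 counts in 5 or more libraries. Outside the cisplatin group, only KW6002 replicate 6 and cisplatin plus KW6002 replicates 2, 3, and 6 reached that count. Mmp7 was therefore tested only because of the group in which it was high, so its passing with cisplatin is not separate support for a rise. The ratio of summed, scaled counts of cisplatin over vehicle was 28.4 (95% exact interval 11.9 to 88.4), and that of cisplatin plus KW6002 over cisplatin was 0.326 (0.241 to 0.437). These intervals cover counting error only. In the fit, which also takes in the spread between mice, Mmp7 rose with cisplatin (log2 fold change 4.67 ± 0.92, adjusted p = 9.99e-05) and was lower with the addition of KW6002 (-1.59 ± 0.59, adjusted p = 0.0251). The cisplatin value was 3.79 with the number series as a covariate. The fall with KW6002 no longer passed with DESeq2 (adjusted p = 0.0901), without cisplatin replicate 1 (adjusted p = 0.0761), or without cisplatin plus KW6002 replicate 1, 4, or 5 (adjusted p = 0.0507, 0.0530, and 0.0528). The combined treatment against vehicle gave 3.08 ± 1.04 (adjusted p = 0.0141), and it did not pass with the number series as a covariate (2.21, adjusted p = 0.103) or in the mice of the 500s alone (3.11, adjusted p = 0.0988). An antisense gene shares 123 exon bases with Mmp7, and whether counting used strand is not given in the sources used here.

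Adamts1 encodes a secreted protease that cuts proteoglycans such as aggrecan and versican (ENSMUSG00000022893, mm10 chr16:85793827-85803113, minus strand). The vehicle libraries gave 41.8, 40.8, 57.0, 64.2, and 59.7 CPM, and the cisplatin libraries gave 258, 226, 255, 250, and 180 CPM. The combined group ran from 122 to 164 CPM (median 157) and the KW6002 group from 51.2 to 83.6 CPM (median 67.6). As for Mmp14, the combined group lay between vehicle and cisplatin without touching either. Adamts1 rose 4.43-fold with cisplatin (log2 fold change 2.15 ± 0.15, adjusted p = 2.52e-11). With KW6002 added it was at 0.634 times the cisplatin level (-0.66 ± 0.14, adjusted p = 0.000402) and at 2.81 times the vehicle level (1.49 ± 0.15, adjusted p = 1.48e-08). The log2 fold change with cisplatin was 1.91 in the mice of the 500s alone and 1.87 with the number series as a covariate. In both the vehicle and the KW6002 group, every mouse of the 500s lay above every other mouse for Adamts1. The cause was not tested.

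The 3 inhibitor genes differed from each other. Timp1 (ENSMUSG00000001131, mm10 chrX:20870166-20874735, plus strand), an inhibitor gene known to be induced in injured tissue, was almost silent in vehicle kidneys at 0.810, 0.441, 0.403, 0.352, and 0.586 CPM. After cisplatin its level was 42.8, 31.5, 40.2, 35.2, and 25.2 CPM. With both drugs it ran from 5.97 to 18.4 CPM (median 9.93), and with KW6002 from 0.457 to 1.61 CPM (median 0.557). No cisplatin library overlapped a library of another group. The rise with cisplatin was 66.3-fold (log2 fold change 6.05 ± 0.37, adjusted p = 1.73e-12), which was the largest fold among the 10 genes. The addition of KW6002 lowered Timp1 to 0.328 times the cisplatin level (-1.61 ± 0.25, adjusted p = 1.05e-05), which was still 21.7-fold above vehicle (4.44 ± 0.37, adjusted p = 8.85e-10).

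Timp2 (ENSMUSG00000017466, mm10 chr11:118301069-118355740, minus strand) moved less. Its vehicle levels were 84.5, 71.9, 51.2, 67.8, and 73.2 CPM, and its cisplatin levels were 128, 114, 104, 102.1, and 114 CPM. The combined group ran from 64.2 to 84.6 CPM (median 75.1), and the KW6002 group from 61.3 to 90.8 CPM (median 68.8). Cisplatin libraries were above all the others, and the other 3 groups overlapped. Timp2 rose 1.61-fold with cisplatin (0.69 ± 0.11, adjusted p = 1.37e-05) and was lower with KW6002 added (-0.59 ± 0.11, adjusted p = 8.54e-05). Against vehicle, the combined treatment differed by 0.10 ± 0.11 on the log2 scale (adjusted p = 0.456).

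Timp3 (ENSMUSG00000020044, mm10 chr10:86300372-86349506, plus strand), whose product stays bound to the matrix, went the other way. It was the most abundant of the 10 per exon length in vehicle kidneys, at 3991, 3335, 3323, 3109, and 2735 CPM. After cisplatin it was 1451, 1481, 1374, 1370, and 1393 CPM, and the combined group ran from 1215 to 1415 CPM (median 1323). The KW6002 group stayed high, at 2870 to 3553 CPM (median 3187). Timp3 fell to 0.429 times the vehicle level with cisplatin (-1.22 ± 0.08, adjusted p = 1.33e-11) and to 0.399 times with both drugs (-1.33 ± 0.08, adjusted p = 6.15e-12). It was the only gene of the 10 that did not pass between the combined and the cisplatin group, where the log2 difference was -0.10 ± 0.08 (adjusted p = 0.282). Timp3 shares 1733 exon bases with Syn3 on the other strand. Syn3 was at 7.02 to 12.6 CPM in vehicle and 1.07 to 1.44 CPM in cisplatin libraries.

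Per kilobase of exon, Timp3 made up 95.6% ± 0.796 (SD, n = 5) of the summed Timp1, Timp2, and Timp3 level in vehicle kidneys and 71.9% ± 2.5 (n = 5) after cisplatin. The share of Timp1 went from 0.137% ± 0.0411 to 16.2% ± 2.78, and that of Timp2 from 4.26% ± 0.770 to 11.9% ± 0.798. With both drugs, Timp3 was at 83.6% ± 2.81, Timp2 at 9.90% ± 0.840, and Timp1 at 6.54% ± 2.75 (n = 6). The summed level was 424 ± 57.5 CPM per kb in vehicle, 242 ± 11.7 in cisplatin, and 194 ± 13.1 in combined libraries. This sum of 3 mRNAs, mostly Timp3, was thus lower in both groups given cisplatin while its make-up differed. Timp4 is not in the sum. These shares are descriptions and were not tested apart from the genes.

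**Figure D2:**
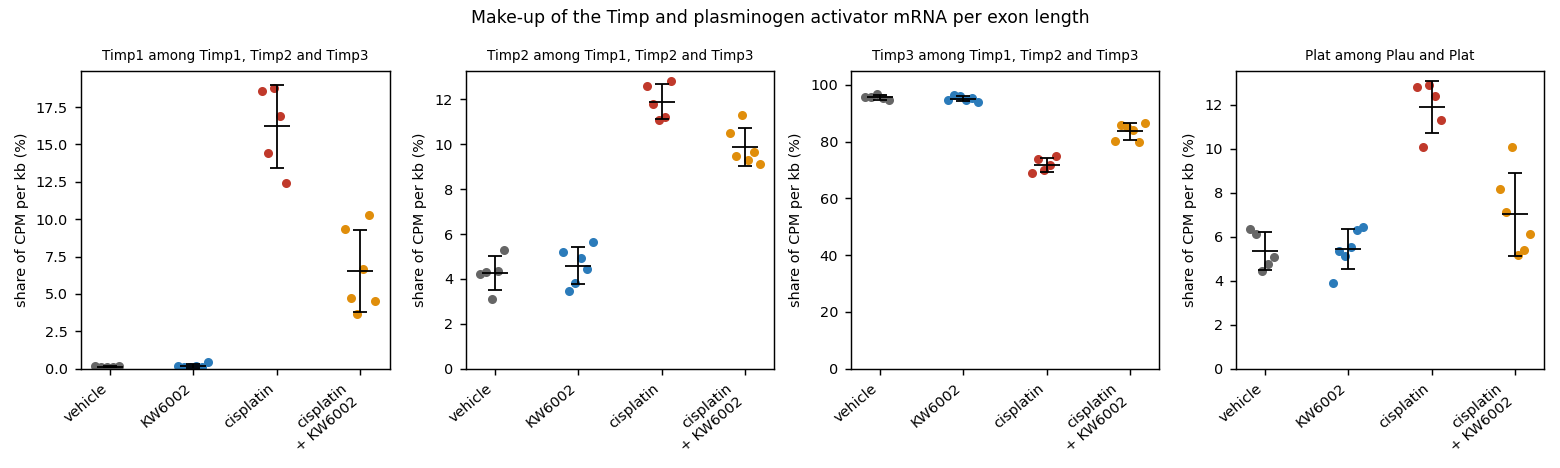
The first 3 panels plot, for each library (points), the share in percent of Timp1, Timp2, and Timp3 in their summed CPM per kb, and the last panel plots the share of Plat in the sum of Plau and Plat, with the mean ± SD of each group as black bars. The Timp3 share runs from 94.5% to 96.8% in vehicle and from 68.8% to 74.8% in cisplatin libraries.

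Of the activators, Plat (ENSMUSG00000031538, mm10 chr8:22757727-22782844, plus strand) had 86.9, 85.7, 67.6, 79.8, and 83.7 CPM in vehicle and 297, 225, 247, 238, and 201 CPM in cisplatin libraries. The combined group ran from 78.4 to 114 CPM (median 92.0), below every cisplatin library, and the KW6002 group from 68.9 to 84.2 CPM (median 75.8). Plat rose 2.99-fold with cisplatin (1.58 ± 0.10, adjusted p = 4.16e-12) and was at 0.388 times the cisplatin level with KW6002 added (-1.37 ± 0.10, adjusted p = 1.15e-10). Combined libraries overlapped vehicle libraries, and the difference of 0.22 ± 0.10 did not pass (adjusted p = 0.0589). It passed with scaling by library size only (0.37, adjusted p = 0.00345), and without cisplatin plus KW6002 replicate 2, 4, or 6 (adjusted p = 0.0477, 0.0419, and 0.0250).

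Plau (ENSMUSG00000021822, mm10 chr14:20836660-20843385, plus strand) was already abundant, with 484, 498, 550, 607, and 595 CPM in vehicle kidneys. The cisplatin libraries gave 771, 762, 631, 640, and 599 CPM. The combined group spread from 332 to 757 CPM (median 446) and the KW6002 group from 411 to 680 CPM (median 487). All 4 groups overlapped. The log2 fold change with cisplatin was 0.32 ± 0.17 and did not pass (adjusted p = 0.0969), whereas it passed with scaling by library size only (0.53, adjusted p = 0.00737) and with a fit of these 2 groups alone (0.32, adjusted p = 0.00823). In the mice of the 500s alone it was smaller and did not pass (0.17, adjusted p = 0.486). With KW6002 added to cisplatin, Plau was lower (-0.45 ± 0.16, adjusted p = 0.0202), a call that was lost without cisplatin replicate 1 or 2 (adjusted p = 0.0543 and 0.0525) or without cisplatin plus KW6002 replicate 3 (adjusted p = 0.0511). The combined treatment against vehicle gave -0.13 ± 0.16 (adjusted p = 0.483). The share of Plat in the summed per-kilobase level of both activators was 5.35% ± 0.849 (SD, n = 5) in vehicle, 11.9% ± 1.19 (n = 5) in cisplatin, and 7.01% ± 1.88 (n = 6) in combined libraries.

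Plaur (ENSMUSG00000046223, mm10 chr7:24462484-24475968, plus strand), the urokinase receptor gene, was at 4.89, 5.13, 6.55, 7.68, and 8.82 CPM in vehicle and at 52.8, 50.6, 53.1, 51.4, and 43.9 CPM in cisplatin libraries. With KW6002 it ran from 5.61 to 15.0 CPM (median 8.79) and with both drugs from 24 to 47.8 CPM (median 26.9). In the combined group 4 libraries lay between 24 and 27.5 CPM, while replicates 4 and 5 reached 39.0 and 47.8 CPM, and replicate 5 overlapped the cisplatin group. Plaur rose 7.59-fold with cisplatin (2.92 ± 0.23, adjusted p = 1.65e-10), was at 0.630 times the cisplatin level with KW6002 added (-0.67 ± 0.20, adjusted p = 0.00717), and was then still 4.79-fold above vehicle (2.26 ± 0.23, adjusted p = 1.80e-08).

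Counted over the 10 genes, 8 rose and 1 fell with cisplatin. Mmp7, 1 of the 8, was tested only through its cisplatin libraries. Groups did not overlap for 9 of the 10 genes, against 55.3% of all tested genes. The median log2 fold change was 1.83 over the 10 genes and -0.012 over all tested genes. Between the combined and the cisplatin group, 9 of the 10 genes were lower and none was higher. The groups did not overlap for 6 of the 10 genes and for 37.8% of all genes, and the medians were -0.83 and 0.005. These comparisons share the cisplatin libraries, so their values are not independent of each other. Against vehicle, the combined group had 5 of the 10 genes higher (Mmp7, Mmp14, Timp1, Plaur, and Adamts1) and Timp3 lower, with 29.8% of all genes higher and 29.9% lower.

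**Figure D3:**
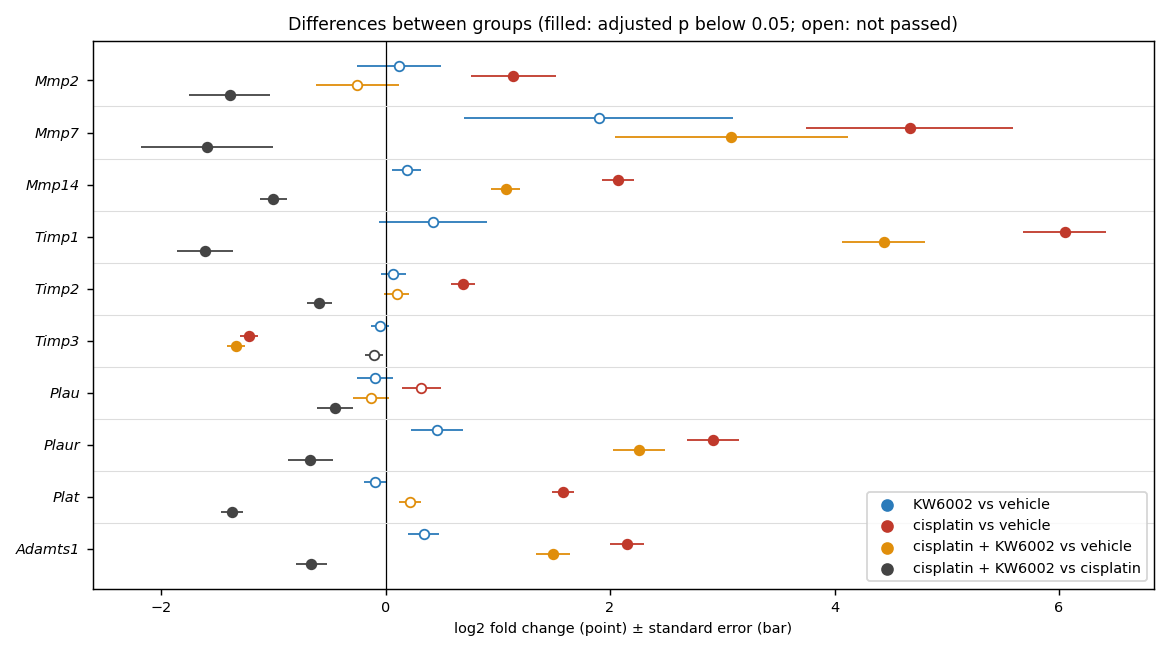
Points are fitted log2 fold changes of the 10 genes and horizontal bars their standard errors, in 4 comparisons shown by color, with filled points for an adjusted p below 0.05. Values for KW6002 against vehicle are all open, and Timp3 is the gene with negative values in both comparisons of a cisplatin group with vehicle.

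KW6002 alone was compared with vehicle to see its effect without injury. None of the 10 genes passed with edgeR or with DESeq2, and edgeR passed 3 of all genes. At an unadjusted p below 0.05, edgeR counted 1 of the 10 genes (Adamts1) beside 11.3% of all genes, and DESeq2 counted 3 (Mmp7, Plaur, and Adamts1) beside 11.2%. Adamts1 gave 0.34 ± 0.14 (adjusted p = 0.373), and Plaur gave 0.46 ± 0.23 (adjusted p = 0.452). For the other genes except Mmp7 (1.90 ± 1.20) the log2 fold change was between -0.09 and 0.42, the latter for Timp1. Without KW6002 replicate 6 the Mmp7 value was -0.41 and that of Timp1 was 0.04.

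The effect of KW6002 with cisplatin was also set against its effect without cisplatin in 1 model. This difference was below 0 and passed for 8 of the 10 genes, beside 19.9% of all genes below 0 and 22.8% above 0. It was -1.20 ± 0.18 for Mmp14 (adjusted p = 1.83e-05), -1.28 ± 0.14 for Plat (adjusted p = 1.81e-07), and -2.03 ± 0.54 for Timp1 (adjusted p = 0.00422). Adamts1 (-1.0 ± 0.20), Plaur (-1.13 ± 0.30), and Timp2 (-0.66 ± 0.16) also passed. Timp3 (-0.05 ± 0.11, adjusted p = 0.736) and Plau (-0.36 ± 0.23, adjusted p = 0.206) did not. Plau passed without cisplatin plus KW6002 replicate 5 (-0.52, adjusted p = 0.0325). Over all settings and left-out libraries, this one included, its value ran from -0.52 to 0.03 (adjusted p up to 0.939). Mmp2 gave -1.5 ± 0.52 (adjusted p = 0.0234), which was lost without KW6002 replicate 1 or 6 (-1.28 and -1.24, adjusted p = 0.050 and 0.0514) and was -2.17 in the mice of the 500s alone. Mmp7 gave -3.49 ± 1.32 (adjusted p = 0.0372), and that value rested on KW6002 replicate 6, without which it was -1.18 (adjusted p = 0.540). The Mmp7 call was also lost in the mice of the 500s alone (-4.40, adjusted p = 0.0563) and without vehicle replicate 1, 2, or 5, cisplatin replicate 1, or cisplatin plus KW6002 replicate 4 or 5 (adjusted p = 0.0505 to 0.0675).

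Per kilobase of exon, the order of mean levels in vehicle kidneys was Timp3 (405 ± 56.1 CPM per kb, SD), Plau (231 ± 23.3), Timp2 (17.9 ± 3.09), Plat (12.9 ± 1.25), Adamts1 (9.94 ± 2.02), Plaur (2.53 ± 0.638), Mmp14 (1.86 ± 0.404), Mmp2 (1.56 ± 0.881), Timp1 (0.584 ± 0.208), and Mmp7 (0.0333 ± 0.0323). Libraries of neighbors overlapped from Timp2 to Adamts1 and from Plaur to Timp1. After cisplatin the order was Plau (288 ± 33.8 CPM per kb), Timp3 (174 ± 6.07), Adamts1 (44.1 ± 6.16), Timp1 (39.4 ± 7.89), Plat (38.7 ± 5.69), Timp2 (28.8 ± 2.61), Plaur (19.2 ± 1.43), Mmp14 (7.82 ± 0.634), Mmp2 (3.43 ± 0.818), and Mmp7 (0.910 ± 0.405). There, Adamts1, Timp1, Plat, and Timp2 overlapped as neighbors, and no other neighbors did. Timp1 thus stood in the ninth place with vehicle and in the fourth with cisplatin. In combined libraries, Plau (210 ± 63.6 CPM per kb) and Timp3 (162 ± 8.40) overlapped.

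Other genes of the same system were taken as a list of 58, of which 47 were tested. With cisplatin 24 of the 47 rose and 8 fell, beside 34.6% and 35.9% of all genes tested. With KW6002 added to cisplatin 6 were higher and 30 lower, beside 28.6% and 27.2% of all genes. None passed for KW6002 alone. The median log2 fold change of the 47 was 0.44 with cisplatin and -0.52 with the addition of KW6002, and over all genes it was -0.012 and 0.005. By role, cisplatin raised 8 and lowered 2 of 14 further matrix metalloproteinases, raised 6 and lowered 3 of 10 genes of the plasminogen system, raised 6 and lowered 2 of 13 ADAMTS genes, and raised 3 of 7 ADAM genes. The counts of rises in the ADAMTS and ADAM families are near the 34.6% of all genes that rose. Of the other 3 inhibitor and regulator genes (Timp4, Reck, and Bsg), 1 rose and 1 fell.

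Serpine2, which encodes protease nexin-1, an inhibitor of plasminogen activators and thrombin, was at 16.8 to 23.3 CPM in vehicle kidneys (median 18.9), 108 to 190 CPM after cisplatin (median 135), and 44.4 to 61.0 CPM with both drugs (median 47.9). These 3 groups did not overlap. Serpine2 rose 7.12-fold with cisplatin (2.83 ± 0.14, adjusted p = 2.70e-14) and was at 0.360 times the cisplatin level with KW6002 added (-1.47 ± 0.12, adjusted p = 1.14e-09). Serpinf2, the gene of the plasmin inhibitor alpha-2-antiplasmin, went from 361 to 423 CPM in vehicle down to 18.5 to 34.1 CPM in cisplatin and was at 82.1 to 137 CPM in combined libraries. Its log2 fold change was -3.74 ± 0.14 with cisplatin and 1.81 ± 0.13 when KW6002 was added (adjusted p = 2.00e-10).

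Among the proteases of the list, Adamts4, which encodes an aggrecanase, rose 19.8-fold with cisplatin (4.31 ± 0.34, adjusted p = 1.26e-10), from 0.639 to 2.80 CPM up to 28.8 to 53.2 CPM, and was lower with KW6002 added (-2.06 ± 0.27, adjusted p = 1.27e-06). Adam8, a membrane protease gene, was at 10.5 to 22.6 CPM in cisplatin and 2.79 to 7.72 CPM in combined libraries (-1.74 ± 0.38, adjusted p = 0.000516). The collagenase gene Mmp13 was at 1.56 to 2.76 CPM in vehicle, 0.126 to 0.340 CPM in cisplatin, and 0.172 to 0.831 CPM in combined libraries. It fell with cisplatin (-3.28 ± 0.31, adjusted p = 2.63e-09) and was higher with KW6002 added (1.36 ± 0.33, adjusted p = 0.00132). Adamts16 fell with cisplatin (-1.62 ± 0.24, adjusted p = 3.39e-06), with -0.94 in the mice of the 500s alone, and was higher with KW6002 added (0.94 ± 0.24, adjusted p = 0.00187). None of the directions or calls given for Serpine2, Serpinf2, Adamts4, Adam8, Mmp13, and Adamts16 in these comparisons changed in 232 values from other settings and left-out libraries.

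**Figure D4:**
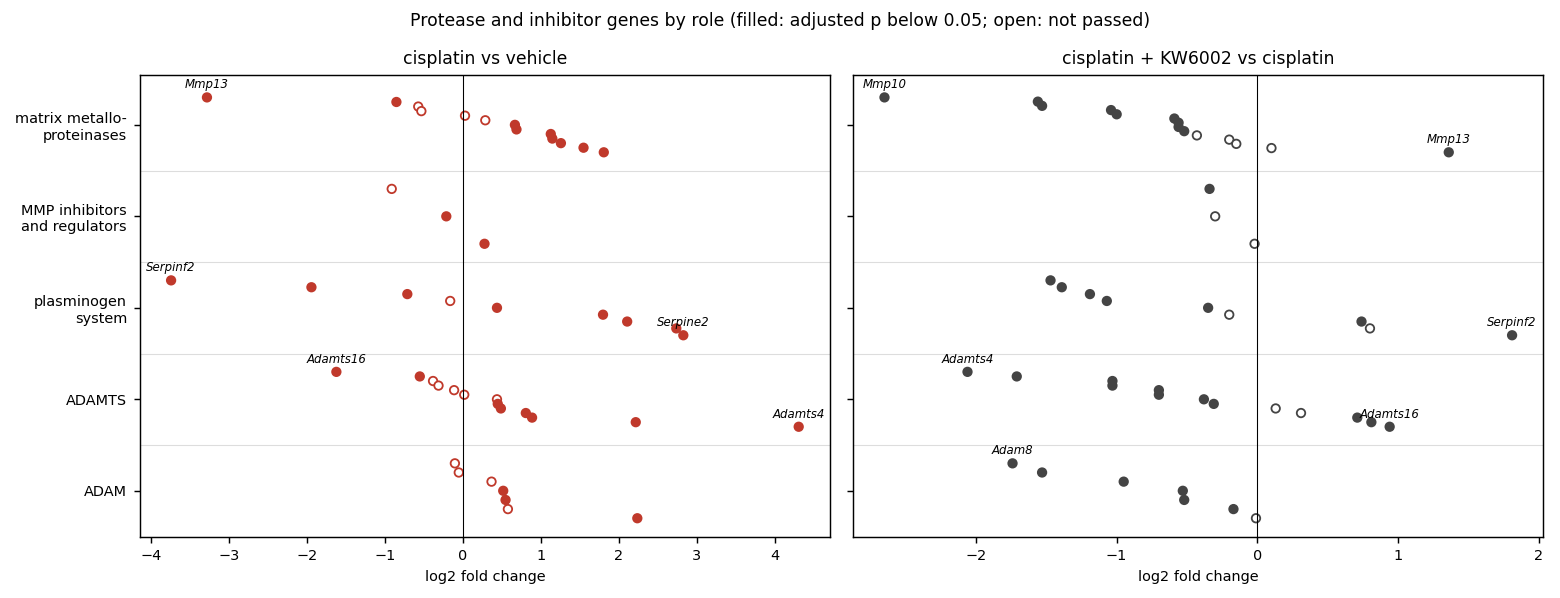
Points are genes of the list, grouped by role, each with its log2 fold change on the x axis for cisplatin against vehicle (left) and cisplatin plus KW6002 against cisplatin (right), both of which use the cisplatin libraries. Filled points had an adjusted p below 0.05, and Mmp10 is left out on the left because its vehicle libraries held 0 counts.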

How the data were processed

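Kidney poly(A) RNA of 22 mice was sequenced. The authors prepared stranded libraries, aligned reads with STAR to mm10, and counted reads per gene with HTSeq 0.6.1p1. Whether counting used strand is not given in the sources used here. The deposited values are raw counts, whole and without normalization by the authors. The table also has 66 empty columns without names, which were left aside. Symbols, positions, and exon lengths came from GENCODE M21 on mm10, and start-site windows from RefSeq on GRCm38.p6.

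A gene was tested if 5 or more libraries reached 10 counts (at the median library size) and its total reached 15. This held for 17131 genes, which carry 99.9% of the reads counted. Tests were run in edgeR 4.0.16 under R 4.3.3 (TMM, all 22 libraries, 1 mean per group, quasi-likelihood F tests, Benjamini-Hochberg adjustment). The biological coefficient of variation was 0.129. DESeq2 1.42.0, other scalings, other filters, fits of only the groups compared, the number series of the mice, the replicate block, and leaving out each library were tried as alternatives. Under scaling by library size only, the all-gene median log2 change shifted to 0.204 for cisplatin against vehicle and to 0.155 for both drugs against vehicle.

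On simulated data for cisplatin against vehicle (16849 genes), 89 of 100 genes changed by 1 on the log2 scale and 99 of 100 changed by 2 were recovered. Among the unchanged genes, 9 passed. The changed genes had a mean above 1 CPM and were far fewer than the genes that passed in the data. The simulation therefore does not cover genes as low as Mmp7 or scaling under so wide a change. The intervals for Mmp7 are exact (Clopper-Pearson) at 95%. The members, the list of 58 genes, and the tests were chosen with earlier results of these data known. Besides the 10 members, the genes named were the 3 largest rises and falls on the list among genes passed with a mean of at least 1 CPM, for cisplatin against vehicle and for the addition of KW6002 to cisplatin. An item that falls under this rule is not reported here, although the counts over the list include it.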

Additional observations from a re-analysis of the deposited data

Results flagged for a closer look

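In 40 sets of libraries (10 genes in 4 groups), 3 libraries stood far from the others of their group by Dixon's test, where chance gives about 1 in 20. In KW6002 replicate 6, Mmp7 was at 0.805 CPM and Timp1 at 1.61 CPM, each the highest of the 6 libraries. In cisplatin replicate 5, Plaur was at 43.9 CPM, the lowest of the 5 libraries.

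The KW6002 effect differed between mice given cisplatin and mice not given it for 8 of the 10 genes in the edgeR test of that difference, on the log2 scale. Among all genes tested, this difference passed above 0 for 22.8% and below 0 for 19.9%. The difference was -1.5 for Mmp2, -3.49 for Mmp7, -1.20 for Mmp14, and -2.03 for Timp1. It was -0.66 for Timp2, -1.13 for Plaur, -1.28 for Plat, and -1.0 for Adamts1. The values for Mmp2 and Mmp7 were those lost when single libraries were left out.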

How the results depend on the processing

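Over the 10 genes and 5 comparisons, 425 values from other settings kept their side of the threshold, 4 passed in addition, and 4 no longer passed. With 1 library left out the numbers were 630, 4, and 16. No passed value changed direction. Values that passed in neither fit were counted as kept also where their sign changed. Mmp2 with KW6002 alone, at 0.12 in the main fit, ran from -0.15 to 0.79 over the other fits. The number of the 10 genes that passed was 8 to 10 for cisplatin against vehicle, 7 to 9 for cisplatin plus KW6002 against cisplatin, 5 to 7 for cisplatin plus KW6002 against vehicle, 6 to 8 for the difference of effects, and 0 in every run for KW6002 against vehicle. The 8 for cisplatin came with at least 10 counts required in every library, where only 9 of the genes were tested. For the comparisons other than KW6002 against vehicle, in the same order, 10342 to 12958, 8455 to 10211, 8578 to 10919, and 6062 to 7858 of all genes passed. The number of genes tested differed between fits. Of all genes, 3 passed for KW6002 against vehicle, 99 with DESeq2, 40 with the number series as a covariate, 8 in the mice of the 500s alone, and 0 with only these groups in the fit. With 1 library left out that count was 1 to 64, with 64 without vehicle replicate 3, 10 without KW6002 replicate 1, 5 without vehicle replicate 5 or KW6002 replicate 6, and 1 without vehicle replicate 4 or KW6002 replicate 2 or 5. The cause was not tested. Adam8 after cisplatin was 3.28 on the log2 scale in the mice of the 500s alone against 2.24 in all mice.

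Deviations from group means were correlated near 0 on the median for libraries with the same replicate number (31 pairs, correlation -0.175 to 0.405, median 0.00846). Libraries with different numbers gave -0.328 to 0.337 (150 pairs, median -0.00142). No pairing of the mice by number was seen, though such a check cannot exclude one. With the replicate block, 1 gene passed for KW6002 against vehicle, and Plat passed for cisplatin plus KW6002 against vehicle (0.24, adjusted p = 0.0433). No other call on the 10 genes changed under the replicate block. Depth limits Mmp7, which held 0 to 58 counts per library, more than the other 9 genes. With at least 10 counts required in every library, Mmp7 was not tested.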

Other observations

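Mmp10, the stromelysin-2 gene, lay below the mean level set for naming genes and was picked out after its values were seen. Its counts were 0 in every vehicle and KW6002 library, 15 to 38 in the cisplatin libraries, and 0 to 7 in the libraries with both drugs. Like Mmp7, Mmp10 passed the filter on low counts only through its cisplatin libraries. Set against a floor of 3 counts over the whole vehicle group, its level was at least 30.1-fold higher with cisplatin. The ratio of cisplatin plus KW6002 over cisplatin was 0.155 (95% exact interval 0.0900 to 0.253, counting error only).

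Other genes near the plasminogen step moved as well. Anxa2 and S100a10, whose products form a plasminogen-binding complex at the cell surface, rose 4.31-fold and 6.66-fold with cisplatin and were at 0.475 and 0.382 times the cisplatin level with KW6002 added. Plg, the plasminogen gene, fell with cisplatin (log2 fold change -1.94 ± 0.49, adjusted p = 0.00123), and its value with KW6002 added to cisplatin did not pass (0.80 ± 0.51, adjusted p = 0.195). Lrp1, a receptor that takes up protease and inhibitor complexes, rose 3.48-fold with cisplatin and was at 0.439 times that level with KW6002 added. These 4 genes were picked out after their values were seen.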
